A study of Mus musculus with 45 samples.

Results

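The change that takes place in fibroblasts during the first 2 days of MyoD together with F/R/C was measured by bulk RNA-seq. Its 6 libraries of the 45 in the series were picked by title and comprise 3 of untreated mouse embryonic fibroblasts (MEFs) and 3 of cells that had received doxycycline (Dox) plus F/R/C for 2 days. A further 3 libraries, from cells given Dox alone for 2 days, serve as a parallel arm. The genotype label is the same for all 9, Tg:Pax7-nGFP/C57BL6;DBA2, a nuclear GFP reporter of Pax7, the transcription factor of muscle stem cells, in a mixed background. MyoD was switched on by Dox in transgenic MEFs, and the untreated MEFs received neither Dox nor F/R/C, so no library shows F/R/C or Dox without MyoD. Whether the untreated MEFs carried the inducible construct is not stated in the labels, which also do not say whether the replicates came from separate embryos or cultures. The p-values come from 1 fit of all 45 libraries and rest on the spread between libraries within its 15 groups. Whether that is a spread between embryos or between cultures is therefore not known. Between replicates 1 and 2 of these 9 libraries it may be technical, while replicate 3 differed from both in sex-linked transcripts. The labelled cell type of the treated libraries is muscle fibers and progenitor cells, and whole cultures were harvested, so a change in the number of cells of a type cannot be told apart from a change in RNA per cell.

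MyoD is a basic helix-loop-helix transcription factor that binds, with an E protein partner, the E-box hexamer CANNTG. In muscle differentiation it switches on Myog and the Mef2 factors, which then act with it on genes of the contractile apparatus, while Id proteins block it by capturing its partner. In published protocols for induced myogenic progenitor cells (iMPCs), F/R/C stands for forskolin, which raises cAMP, RepSox, which inhibits the TGF-beta receptor kinase, and a CHIR compound, which inhibits glycogen synthase kinase and thereby stabilises beta-catenin. The labels do not spell the letters out.

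Total estimated reads were 15.64 to 21.31 M in MEFs, 21.2 to 22.6 M on day 2 with F/R/C and 19.9 to 24.3 M on day 2 of MyoD alone. Mitochondrial transcripts took 1.51 to 1.86%, 1.90 to 1.99% and 1.43 to 1.69% of the reads. Replicate 3 of each group was the one with Y-linked transcripts (153 to 164 CPM summed over Ddx3y, Eif2s3y, Kdm5d and Uty), against at most 3.12 CPM in replicates 1 and 2, and it had at most 0.135 CPM of Xist, the RNA of the inactive X chromosome, against 264 to 535 CPM in replicates 1 and 2. Replicate 3 was thus of another source than replicates 1 and 2, and this composition was the same in the groups compared. CPM stands for counts per M reads of the normalised library size. Within each of the 3 groups replicates correlated with r from 0.963 to 0.984 across genes, and no pair of libraries was alike within counting error. Fibroblast transcripts were abundant in all 3 MEF libraries, among them Col1a1 (4817, 3647 and 3496 CPM in replicates 1, 2 and 3), Vim (4297, 4498 and 4294 CPM) and Thy1 (1236, 1521 and 1635 CPM).

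MEF replicate 1 stood apart from the other MEF libraries in that it held muscle transcripts. Myh3, the embryonic myosin heavy chain, was at 49.2, 0 and 0 CPM in MEF replicates 1, 2 and 3, and Myog was at 6.9, 0 and 0 CPM. Among 75 genes of contraction, excitation, fusion and the synapse that were called higher on day 2, 59 were higher in MEF replicate 1 than in both other MEF libraries, and 25 had no reads in replicates 2 and 3. The level of these 75 genes in replicate 1 had a median of 1.24% of the day 2 mean, with quartiles of 0.957 and 1.79%, and it was at most 2% for 59 of them. Genes of mitosis also summed higher in replicate 1, to 1814 CPM against 726 and 675 CPM. Comparisons with MEFs were therefore repeated without replicate 1. How the muscle transcripts came into that library was not tested.

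**Figure D1:**
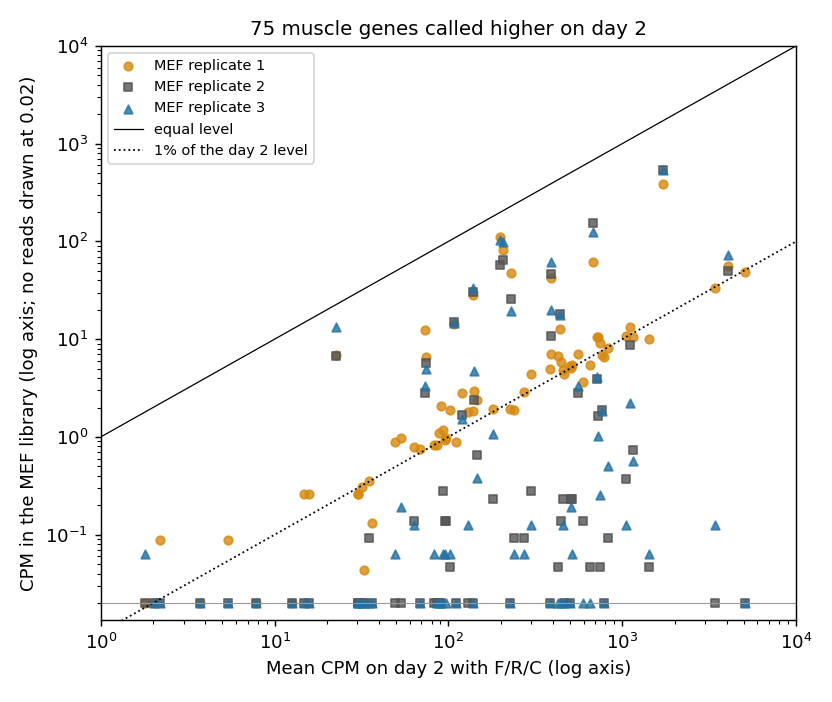
Level of the 75 muscle genes in each MEF library (vertical log axis, CPM, with values of no reads drawn at 0.02) against their mean on day 2 with F/R/C (horizontal log axis, CPM), 1 point per gene and library. Most circles of MEF replicate 1 follow the dotted line at 1% of the day 2 level, while squares and triangles of replicates 2 and 3 are scattered below it or lie at no reads.

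A gene was called when edgeR's quasi-likelihood test gave a Benjamini-Hochberg adjusted p under 0.05 and the log2 fold change was at least 1 in size. Of 17325 genes tested, 3531 (20.4%) were called between MEFs and day 2 with F/R/C, 1984 of them (11.5%) higher and 1547 (8.93%) lower. Without MEF replicate 1 the numbers were 3172 (18.3%), 1833 (10.6%) and 1339 (7.73%), and 2810 genes were called in the same direction in both fits. The count of lower genes depended on day 2 replicate 2, without which it was 976 and the total 2592. Over the 17325 genes the median log2 fold change was 0.00. Against these shares, the lists of muscle genes lay far higher, and the lists of replication and mitosis held no called gene.

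**Figure D2:**
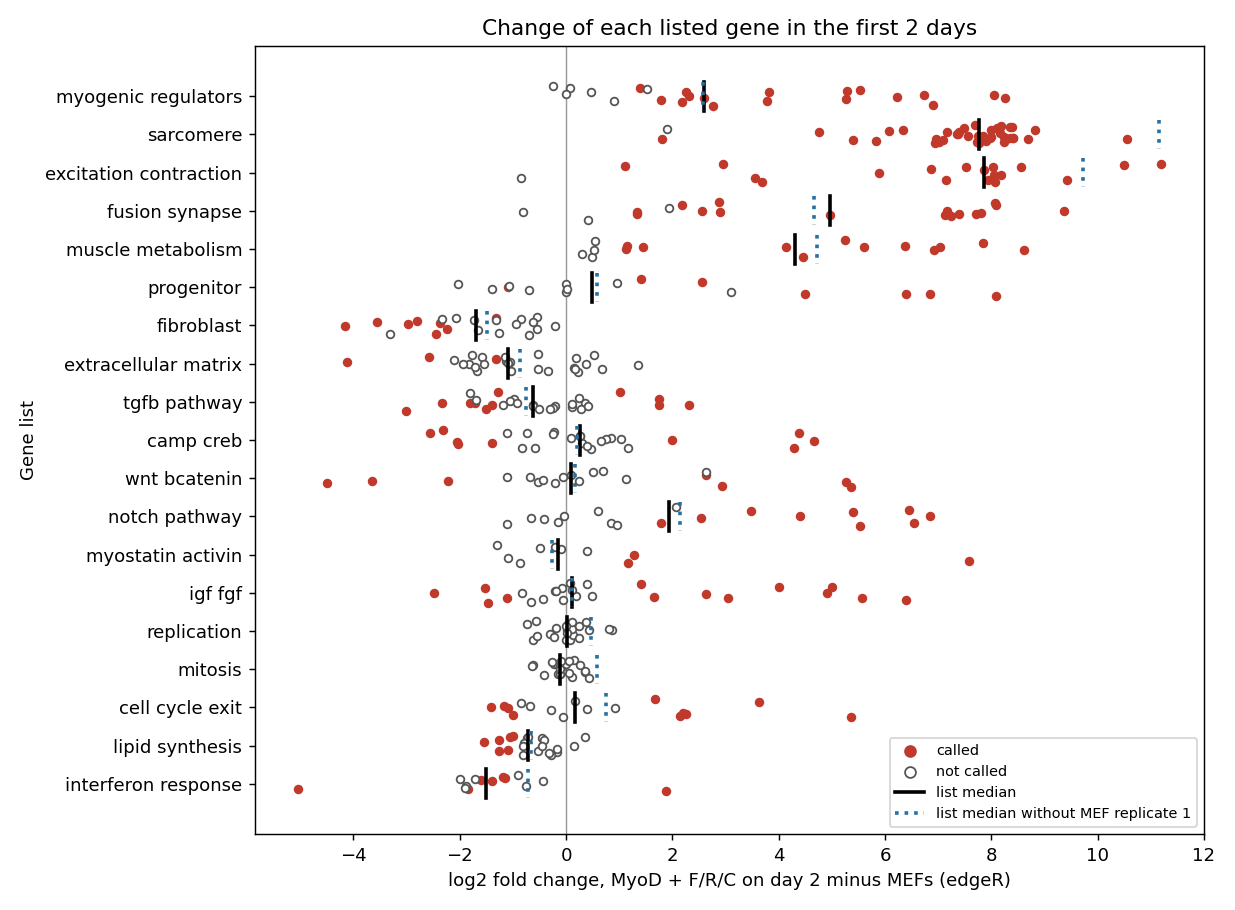
The log2 fold change from MEFs to day 2 with F/R/C (horizontal axis, edgeR) of every tested gene in 19 gene lists, with called genes filled and the others open. Solid bars mark the list medians and dotted bars the medians without MEF replicate 1; the sarcomere list has the largest shift between the bars, from 7.76 to 11.15.

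Myod1 itself (chromosome 7, 46376474 to 46379099, GRCm38) was examined first. It was at 8.84, 1.07 and 0.761 CPM in MEF replicates 1, 2 and 3 and at 799.8, 1353 and 723 CPM in the F/R/C libraries (log2 fold change 8.05 with SE 0.77 and adjusted p 2e-09). The groups did not overlap, as was the case for 48.3% of all genes tested, and reads of the introduced and the endogenous gene cannot be told apart. In the arm with MyoD alone it was at 1998, 3575 and 2303 CPM, and each of those libraries was above every F/R/C library (MyoD plus F/R/C against MyoD alone: log2 fold change -1.45 with SE 0.57 and adjusted p 0.12; with the replicate number as a block, -1.45 and adjusted p 0.036). The arms did not overlap for 37.8% of all genes tested.

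Of 23 myogenic regulators tested, 17 were higher (73.9%, against 11.5% of all genes) and 0 lower, and all 17 were also called without MEF replicate 1. Myog (chromosome 1, 134289989 to 134292548), which drives terminal differentiation, went from 6.9, 0 and 0 to 595, 917 and 673 CPM (log2 fold change 8.26 with SE 1.03 and adjusted p 2.4e-07), and its day 2 mean was at least 3829-fold above the floor of 3 reads per library in MEF replicates 2 and 3. Mef2c, a partner of MyoD and Myog on muscle promoters, went from 13.1, 3.21 and 5.64 to 277, 470.0 and 268 CPM (log2 fold change 5.53 with SE 0.81 and adjusted p 3.1e-06). All day 2 libraries exceeded all MEF libraries for both genes, and the groups did not overlap for 48.3% of all genes tested.

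Among the other regulators, Eya4, a transcriptional coactivator gene, rose from 4.48, 1.02 and 2.73 to 101, 139.5 and 83.7 CPM (log2 fold change 5.29 with SE 0.51 and adjusted p 1.9e-09), whereas Eya1 was not called, at 19.5, 22.9 and 23.8 against 18.9, 26.9 and 17.2 CPM (adjusted p 0.85). Pitx3, a homeobox gene of the myotome, had at most 1 read in any MEF library and reached 3.98, 4.31 and 5.62 CPM (adjusted p 6e-08).

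Antagonists of MyoD were among the genes that rose. Id1 went from 16.7, 38.8 and 38.5 to 143, 142 and 140.1 CPM (log2 fold change 2.18 with SE 0.34 and adjusted p 9.6e-06) and Id3 from 62.7, 102 and 108 to 246, 219.9 and 254 CPM (log2 fold change 1.40 with SE 0.35 and adjusted p 0.0021). Id2 also rose (log2 fold change 2.59, SE 0.44, adjusted p 2.7e-05). MEF replicate 1 had the lowest Id1 and Id3 of the MEF libraries. No day 2 library overlapped the MEF libraries for these 2 genes, as was the case for 48.3% of all genes tested. The E protein genes Tcf3 and Tcf12, whose products pair with MyoD, did not meet the call rule (log2 fold changes -0.25 and 0.47, adjusted p 0.54 and 0.0081).

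The other muscle regulatory factors were low or silent. Myf5, which precedes MyoD in muscle progenitors, had no reads in any of the 9 libraries. Myf6, a factor of mature fibres, was at 2.06, 1.88 and 1.01 CPM on day 2, against 1 read in all MEF libraries together (adjusted p 0.0022), and this low level was above that of MyoD alone, at 0.0486, 0.115 and 0 CPM (MyoD plus F/R/C against MyoD alone: adjusted p 0.016). The latter call was lost without MyoD-alone replicate 1 (adjusted p 0.059) or replicate 3 (0.076).

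**Figure D3:**
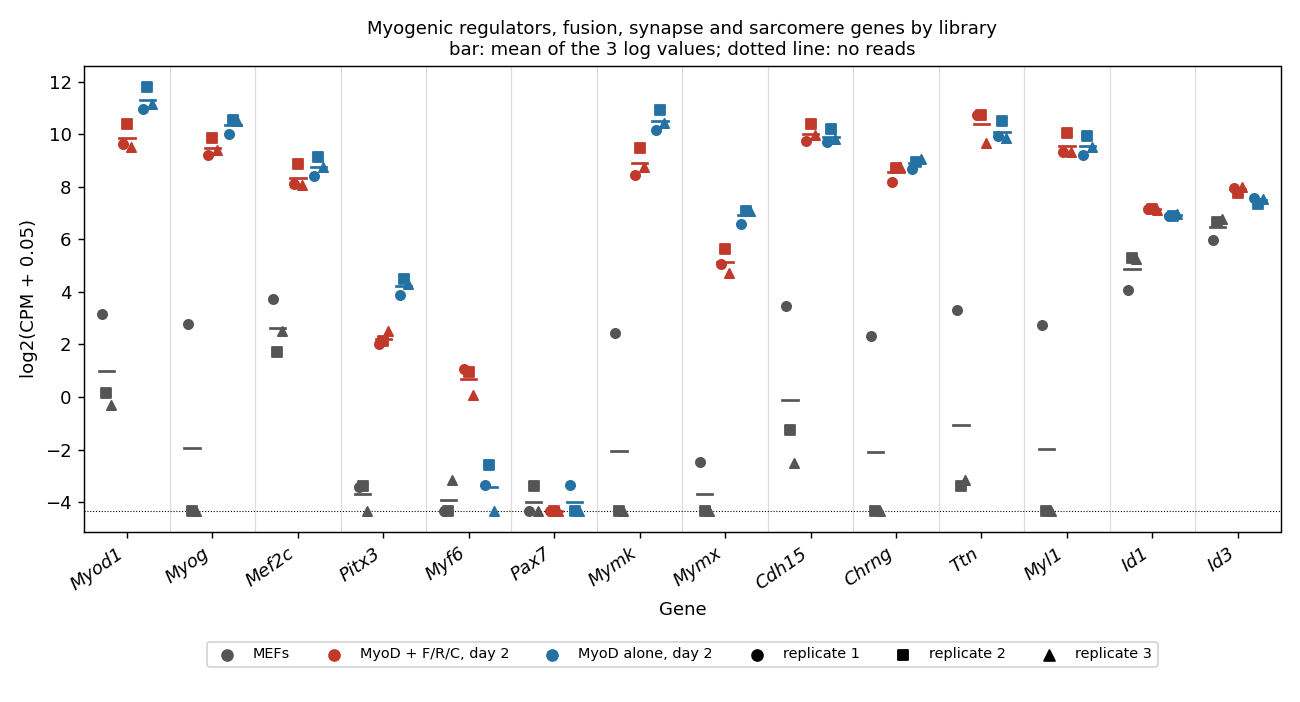
Level of 14 genes in each library as log2 of CPM plus 0.05 (vertical axis), in MEFs (grey), on day 2 of MyoD with F/R/C (red) and on day 2 of MyoD alone (blue); symbols mark replicates 1 to 3, bars the mean of the 3 log values and the dotted line no reads. Grey circles, MEF replicate 1, lie above the other MEF points for Myod1, Myog, Mymk, Cdh15, Chrng, Ttn and Myl1, and all red points lie far above them.

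Because these genes rose together, the 250 bases before their RefSeq start sites (build GRCm38.p6) were searched for motifs on both strands. Of the 80 tested genes of the sarcomere, excitation and fusion lists, 56 had an entry in the promoter table. The hexamer CAGCTG, one of the forms of CANNTG, was present in 22 of these 56 (39.3%), in 18.6% of 1400 promoters of genes called higher, in 12.7% of 1076 of genes called lower and in 12.6% of all 12486 with an entry. Any CANNTG was present in 73.2%, 64.6%, 59.5% and 58.4%. A simplified pattern for the Mef2 site, CTA and TAG separated by any 4 bases, was found in 4 of 56 (7.14%), against 2.74% of all. It takes any middle bases and only these ends, so it is a rough stand-in for Mef2 sites. The cAMP response element TGACGTCA, in 2.56% of all promoters, was in none of the 56, and the TCF/LEF site ATCAAAG was in 1 (1.79%, against 2.29% of all). These matches describe the letters in the window only.

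The muscle promoters with more than 1 CAGCTG are shown, with that hexamer in capitals, because they belong to a sarcomere gene and to subunits of the embryonic acetylcholine receptor that rose together. Tnnt2 lies at chr1:135836084-135836333 (plus strand), Chrng at chr1:87205561-87205810 (plus) and Chrna1 at chr2:73580339-73580588 (minus), each written 5′ to 3′ on the gene's strand up to the base before the start. The hexamers begin 223 and 157 bases before the start in Tnnt2, 155 and 132 in Chrng, and 92 and 44 in Chrna1. Myog, at chr1:134289754-134290003 (plus), is added as a promoter without CAGCTG; its capitals mark 2 other CANNTG hexamers, 138 and 12 bases before the start.
Tnnt2: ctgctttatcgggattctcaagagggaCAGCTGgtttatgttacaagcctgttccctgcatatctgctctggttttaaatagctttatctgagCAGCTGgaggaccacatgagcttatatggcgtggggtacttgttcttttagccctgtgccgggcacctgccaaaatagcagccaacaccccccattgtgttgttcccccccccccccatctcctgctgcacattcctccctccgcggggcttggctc
Chrng: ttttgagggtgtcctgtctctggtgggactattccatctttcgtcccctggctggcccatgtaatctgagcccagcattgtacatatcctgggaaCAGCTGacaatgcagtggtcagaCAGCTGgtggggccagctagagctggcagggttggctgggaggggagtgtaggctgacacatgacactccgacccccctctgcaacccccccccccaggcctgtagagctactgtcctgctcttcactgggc
Chrna1: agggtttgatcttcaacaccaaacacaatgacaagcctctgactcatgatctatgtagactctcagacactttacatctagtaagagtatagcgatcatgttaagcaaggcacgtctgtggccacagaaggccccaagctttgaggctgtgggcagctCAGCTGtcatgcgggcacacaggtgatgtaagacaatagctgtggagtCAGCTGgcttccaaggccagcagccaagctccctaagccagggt
Myog: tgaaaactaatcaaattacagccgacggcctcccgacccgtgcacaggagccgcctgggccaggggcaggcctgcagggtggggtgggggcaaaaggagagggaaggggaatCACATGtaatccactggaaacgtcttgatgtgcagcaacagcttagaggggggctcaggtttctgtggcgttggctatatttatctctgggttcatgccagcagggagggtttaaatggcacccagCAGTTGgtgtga

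The contractile apparatus had the highest share of called genes among the lists. Of 42 sarcomere genes tested 41 were higher (97.6%, against 11.5% of all genes), with a median log2 fold change of 7.76. The same 41 were called without MEF replicate 1. The exception was Mybpc2, a myosin-binding protein of fast fibres, at 0.0447, 0.0938 and 0.0921 CPM. Tnnt2, whose promoter is shown above, went from 8.22, 0.0929 and 0.507 to 628, 1238 and 625 CPM (log2 fold change 8.11 with SE 1.01 and adjusted p 2.2e-07). Ttn, the giant spring of the sarcomere, went from 9.93, 0.0465 and 0.0634 to 1723, 1722 and 807 CPM (log2 fold change 8.69 with SE 1.10 and adjusted p 3.1e-07). Myl1, a myosin light chain, had 6.64, 0 and 0 CPM in MEFs and 644, 1064 and 638 CPM on day 2, at least 4111-fold above the floor of MEF replicates 2 and 3 (adjusted p 1.8e-06).

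Levels per transcript length (TPM) show which isoforms dominated. Among myosin heavy chains the embryonic Myh3 was at 1506 ± 378 TPM (SD, n = 3) on day 2. It was followed by the perinatal Myh8 at 188 ± 71.9 and the adult fast Myh1 at 180.2 ± 78.6 TPM, whose spreads overlapped. The slow Myh7 was at 45.2 ± 9.65, the fast Myh4 at 25.5 ± 2.71 and Myh2 at 9.8 ± 1.51 TPM. Reads are divided among these similar genes, so their split is an estimate. The order on day 2 of MyoD alone was not the same: Myh1 was then at 5.39 ± 2.02 TPM, below Myh8 at 99.9 ± 32 and Myh7 at 30.4 ± 4.96 TPM. In CPM, Myh1 was at 530.0, 919 and 346 with F/R/C and 15.8, 26.1 and 11.6 without (log2 fold change 5.07, SE 1.00, adjusted p 0.0014). It was the 1 sarcomere gene of 42 called between the arms, and in the 33 libraries of MEFs and time course 4 were called, or 6 with the replicate number as a block. These 6 were Myh1, Myh2 and Myh4, higher with F/R/C (log2 fold changes 5.06, 2.15 and 2.21), and the light chain Myl4, the M-band protein Myom2 and the Z-disc protein Tcap, lower (-1.38, -1.14 and -1.42).

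Striated muscle actins reached the level of the most abundant transcripts of the culture. The skeletal Acta1 rose from 96.4 ± 19.4 to 6029 ± 2119 TPM and the cardiac form Actc1, the isoform of embryonic muscle, from 15.9 ± 27.4 to 4378 ± 1208 TPM. Mylpf, the fast regulatory light chain, was at 3439.6 ± 1058 TPM. By mean TPM these genes ranked 6, 10 and 18 of 15029 protein-coding genes on day 2. Of the 100 highest genes 7 belonged to the sarcomere list on day 2 and 0 in MEFs. Actin reads are also shared between paralogs. The troponins of slow and of fast fibres rose together, with Tnnt1 at 1108 ± 265 and Tnnt3 at 710.4 ± 218 TPM.

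Excitation and calcium handling followed. Of 19 genes tested 18 were higher and 0 lower (94.7 and 0%, against 11.5 and 8.93% of all genes). The counts were the same without MEF replicate 1. The call of Cacna2d1 was lost without MEF replicate 2 (adjusted p 0.14) or day 2 replicate 1 (0.055) or 2 (0.091). Casq2, the calcium store protein of cardiac and immature muscle, was at 5.05, 0.232 and 0.19 CPM in MEFs and 327, 760.3 and 443 CPM on day 2 (log2 fold change 8.07 with SE 1.09 and adjusted p 9.1e-07), and Casq1, its fast-fibre relative, was lower, at 31.3, 35.8 and 23.4 CPM. Mb, the oxygen-binding myoglobin, had no reads in MEFs and was at 11.5, 20 and 6.44 CPM, at least 66.5-fold higher than the floor of 3 reads per MEF library (adjusted p 1.4e-05). Sln, a small inhibitor of the calcium pump, also had no reads in MEFs and was at 10.4, 10.1 and 2.9 CPM, at least 41-fold higher (adjusted p 2.1e-06). Clcn1, the chloride channel of mature fibres, was not called and was at 0.491, 0.422 and 0.506 CPM.

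Genes of cell fusion and of the motor synapse rose in 16 of 19 tested cases (84.2%, against 11.5% of all genes). Of these, Jam2 was not called without MEF replicate 1 (adjusted p 0.052) or replicate 2 (0.054). Dysf was not called without MEF replicate 2 (0.077) or day 2 replicate 2 (0.086). Mymk (chromosome 2, 27061636 to 27072179), a membrane protein that drives myoblast fusion, went from 5.36, 0 and 0 to 350.2, 718 and 436 CPM (log2 fold change 8.07 with SE 1.04 and adjusted p 4e-07) and was at least 2636-fold above the floor of MEF replicates 2 and 3. Its partner Mymx, with 3 reads in MEF replicate 1 and none in the others, was at 33.1, 49.5 and 26.6 CPM (adjusted p 8.5e-11). Chrng, the acetylcholine receptor subunit of embryonic muscle, went from 4.92, 0 and 0 to 294, 425 and 427 CPM (log2 fold change 7.80 with SE 0.84 and adjusted p 2e-08). Chrne, which replaces it in adult muscle, had 1 read in the 3 day 2 libraries together.

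Muscle metabolism rose in 12 of 16 genes (75%, against 11.5% of all genes). Pygm, the glycogen phosphorylase of muscle, went from 1.58, 0.511 and 0.571 to 87, 142 and 102 CPM (log2 fold change 6.92 with SE 0.78 and adjusted p 4.7e-08) and Pgam2, the muscle phosphoglycerate mutase, from 1.93, 0.418 and 0.697 to 55.4, 121 and 84.3 CPM (log2 fold change 6.38 with SE 0.77 and adjusted p 1.5e-07). Ckm, the creatine kinase of mature fibres, was at 3.58, 6.52 and 11 CPM, a small share of the level of the sarcomere genes. Pfkm, a phosphofructokinase gene, lost its call when any 1 of the 6 libraries, other than day 2 replicate 1, was left out, with adjusted p from 0.069 without MEF replicate 1 to 0.16 without day 2 replicate 2.

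Markers of muscle stem cells were mixed on day 2. Of 16 genes 6 were higher and 1 lower (37.5 and 6.25%, against 11.5 and 8.93% of all genes). Without MEF replicate 1 there were 4 and 1. Pax7 (chromosome 4, 139737062 to 139833528) had no reads in any F/R/C library and 1 read in MEF replicate 2, and Calcr, a receptor of quiescent satellite cells, had none in either group. Cdh15, a cadherin of myoblasts and satellite cells, went from 10.9, 0.372 and 0.127 to 854, 1327 and 992 CPM (log2 fold change 8.09 with SE 0.79 and adjusted p 2.4e-09). Fgfr4, a growth factor receptor of myoblasts, went from 0.264, 0 and 0.0634 to 5.9, 7.92 and 16.8 CPM (log2 fold change 6.4 with SE 0.87 and adjusted p 9.4e-07). Pax3 was at 0.0894, 0.0469 and 0.138 CPM and not called (adjusted p 0.3).

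Notch signalling, which keeps muscle progenitors undifferentiated, was represented by ligands and targets alike. Of 18 genes 9 were higher and 0 lower (50.0 and 0%, against 11.5 and 8.93% of all genes). The ligand gene Dll1 went from 0.571, 0.139 and 0.634 to 39.5, 43.6 and 41.9 CPM (log2 fold change 6.55 with SE 0.50 and adjusted p 6e-11). Among targets, Heyl went from 0.659, 0.139 and 0.634 to 35.5, 57.1 and 70.6 CPM (log2 fold change 6.84 with SE 0.85 and adjusted p 2.4e-07) and Hey1 from 0.659, 0.139 and 0.697 to 32.8, 37.8 and 58.8 CPM (log2 fold change 6.45 with SE 0.69 and adjusted p 1.6e-08). Hes6, which counteracts Notch targets and accompanies differentiation, went from 13, 11.6 and 13 to 473, 745 and 363 CPM (log2 fold change 5.39 with SE 0.52 and adjusted p 2.3e-09). The general target Hes1 did not reach the fold minimum (log2 fold change 0.61, adjusted p 0.034), and the receptor gene Notch3 was not called (0.96, 0.14). Between the arms 0 of the 18 were called by edgeR and 0 by DESeq2, with 6 at an unadjusted p under 0.05. With the replicate block 3 were higher and 1 lower, against 5.09 and 5.13% of all genes.

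TGF-beta signalling, a brake on myogenesis and a driver of matrix synthesis in fibroblasts, moved in both directions. Of 29 genes 4 were higher and 7 lower (13.8 and 24.1%, against 11.5 and 8.93% of all genes). Ligand genes were on both sides. The ligand gene Tgfb2 rose from 17.9, 3.95 and 9.57 to 64.2, 61.2 and 31.1 CPM (log2 fold change 2.32 with SE 0.59 and adjusted p 0.0029), as did Tgfb3 (log2 fold change 1.75) and the receptor gene Tgfbr1 (1.74). Tgfb1 was lower (-1.51, adjusted p 0.011), a call lost without day 2 replicate 2 (adjusted p 0.066). The target and feedback inhibitor Pmepa1 (chromosome 2, 173224458 to 173276533) fell from 89.7, 63.4 and 85.1 to 23.5, 24.1 and 20.5 CPM (log2 fold change -1.80 with SE 0.39 and adjusted p 0.00053). Itgb5, an integrin subunit that activates the latent ligand, fell from 250.2, 198 and 209.9 to 56, 31.2 and 42.6 CPM (log2 fold change -2.34 with SE 0.46 and adjusted p 0.0002), and Bhlhe40, a helix-loop-helix repressor, from 38.6, 40 and 78.2 to 5.99, 4.88 and 8.61 CPM (log2 fold change -3.01 with SE 0.68 and adjusted p 0.00085). The groups did not overlap for these 3 genes, as was the case for 48.3% of all genes tested.

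The parallel arm, which shares the MEF libraries with this comparison, had other values for these targets. Over all genes, 3889 (22.4%) were called between MyoD alone and MEFs, 2136 (12.3%) higher and 1753 (10.1%) lower, or 3344 (19.3%), 1961 (11.3%) and 1383 (7.98%) without MEF replicate 1. With MyoD alone Pmepa1 was at 334, 390.2 and 359.9 CPM, higher than in MEFs (log2 fold change 2.19, or 2.28 without MEF replicate 1), and the 2 arms differed by -3.99 (SE 0.42, adjusted p 2.3e-07). Bhlhe40 was at 46.5, 54.8 and 61.4 CPM with MyoD alone (difference between arms -3.06, SE 0.68, adjusted p 0.0038). Skil, a repressor of Smad proteins induced by the pathway, was at 28.4, 27.6 and 38.4 CPM in MEFs, 40.4, 49.1 and 22.5 CPM with F/R/C and 124, 129 and 128 CPM without, and differed between the arms by -1.77 (adjusted p 3.2e-05), with no call between F/R/C and MEFs (adjusted p 0.47). The target Smad7, an inhibitory Smad, was not called against MEFs (log2 fold change -1.05, adjusted p 0.09; without MEF replicate 1 -1.37 and 0.042, past the threshold). It was lower than with MyoD alone, at 31.2, 15.2 and 13.6 against 77, 53.7 and 50.2 CPM (adjusted p 0.038), and this call was lost when any 1 of the 6 libraries of the arms, other than F/R/C replicate 1, was left out, with adjusted p from 0.056 without MyoD-alone replicate 3 to 0.19 without F/R/C replicate 3. Of the 29 genes 2 were called higher and 6 lower with F/R/C than with MyoD alone, or 3 and 13 with the replicate block, against 2.13 and 2.80% of all genes, or 5.09 and 5.13%.

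Genes of the cAMP response, which CREB activates when cAMP rises, moved both ways against MEFs, with 4 of 26 higher and 5 lower (15.4 and 19.2%, against 11.5 and 8.93% of all genes), so that the share of higher genes was near that of the whole table. Sik1, a kinase gene induced by CREB that supports myocyte survival, rose from 37.4, 21.7 and 22.6 to 418, 653 and 517 CPM (log2 fold change 4.28 with SE 0.41 and adjusted p 2.3e-09). Ppargc1a, a regulator of mitochondrial genes, rose from 0.483, 0.325 and 0.317 to 8.13, 8.53 and 12.6 CPM (log2 fold change 4.67 with SE 0.73 and adjusted p 9.6e-06). The early response genes Fosb and Nr4a1 fell, Fosb from 44, 72.8 and 73.1 to 7.86, 5.63 and 18.6 CPM (log2 fold change -2.57 with SE 0.53 and adjusted p 0.00032) and Nr4a1 from 92.2, 288 and 230.3 to 73.7, 34.2 and 41.5 CPM (log2 fold change -2.03 with SE 0.52 and adjusted p 0.0027). Crem, a gene with an inducible repressor among its products, was not called (14.3, 16.8 and 14.5 CPM in MEFs, 21.1, 15.8 and 17.8 CPM on day 2, adjusted p 0.5). Its value is a sum over all its transcripts and does not separate that product. Against MyoD alone 9 of the 26 were higher and 0 lower with the block, against 5.09 and 5.13% of all genes. Without the block 5 were higher and 0 lower (19.2 and 0%, against 2.13 and 2.80% of all genes). They included Crem (adjusted p 0.014; 0.053, 0.059 and 0.064 without MyoD-alone replicate 2 or 3 or F/R/C replicate 1) and the phosphodiesterase genes Pde4b (66.6, 56.7 and 104 against 22.4, 13.5 and 26.4 CPM, adjusted p 0.00057) and Pde10a (67.2, 52 and 62.5 against 22.5, 18.9 and 21 CPM, adjusted p 0.00027). Neither was called against MEFs, where Pde4b was at 37.3, 56.9 and 50.8 CPM and Pde10a at 23.5, 40.5 and 43.4 CPM.

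Of 19 tested genes of the Wnt pathway, 4 were higher and 3 lower (21.1 and 15.8%, against 11.5 and 8.93% of all genes). Axin2, a feedback inhibitor and common beta-catenin target, rose at a low level, from 1.36, 0.418 and 0.507 CPM in MEFs to 3.13, 7.36 and 7.36 CPM on day 2 (log2 fold change 2.93 with SE 0.57 and adjusted p 0.00016). The feedback gene Nkd1 rose from 0.791, 0.65 and 0.254 to 23.4, 23.4 and 21.6 CPM (log2 fold change 5.27 with SE 0.63 and adjusted p 1.2e-07), and with MyoD alone it was at 14.2, 22.1 and 17.7 CPM. The secreted antagonist Dkk2 fell from 249.7, 885 and 695 to 35, 21 and 24.7 CPM (log2 fold change -4.50 with SE 1.11 and adjusted p 0.0021) and the receptor gene Lgr6 from 19.2, 5.81 and 9.57 to 1.52, 0.563 and 0.644 CPM (log2 fold change -3.66 with SE 0.66 and adjusted p 7e-05). Lef1, a nuclear partner of beta-catenin, was at 0.938, 0.75 and 0.782 CPM and was not called against MEFs (log2 fold change -0.53, adjusted p 0.47), and without MEF replicate 1 its sign was reversed (0.17). It was lower than with MyoD alone, where it was at 3.16, 4.19 and 5.35 CPM (log2 fold change -2.35 with SE 0.53 and adjusted p 0.0042). Axin2 differed between the arms by 1.43, with an adjusted p of 0.087, or 0.011 with the replicate block. Of the 19 genes edgeR called 0 higher and 4 lower with F/R/C than with MyoD alone (0 and 21.1%, against 2.13 and 2.80% of all genes). With the replicate block 3 were higher and 4 lower, against 5.09 and 5.13% of all genes, and DESeq2 called 2 and 4. Lgr6 was among the lower genes (log2 fold change -3.20, adjusted p 0.0019 by edgeR).

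**Figure D4:**
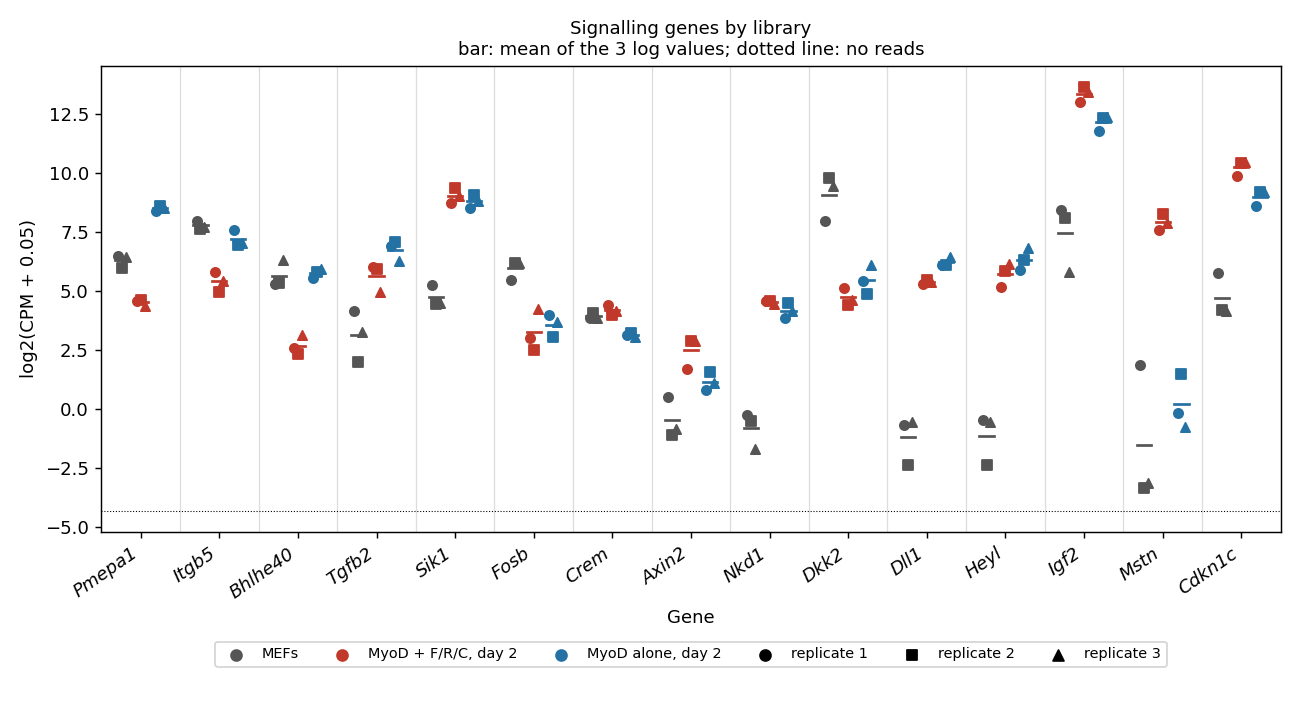
Level of 15 signalling genes in each library as log2 of CPM plus 0.05 (vertical axis) in MEFs (grey), on day 2 of MyoD with F/R/C (red) and on day 2 of MyoD alone (blue), with symbols for replicates and bars for the mean of the log values. Red points lie below grey and blue ones for Pmepa1, Itgb5 and Bhlhe40, and above both for Axin2, Igf2, Cdkn1c and Mstn.

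Of 10 genes of myostatin and activin signalling 3 were higher (30%) and 0 lower by edgeR, against 11.5 and 8.93% of all genes. At an unadjusted p under 0.05 in edgeR 2 were lower, and DESeq2 called 2 lower. Mstn (chromosome 1, 53061640 to 53068079), the ligand that limits muscle mass, was at 3.52, 0.0465 and 0.0634 CPM in MEFs and 189, 310.1 and 234 CPM on day 2 (log2 fold change 7.58 with SE 1.15 and adjusted p 5.8e-06). With MyoD alone it was at 0.827, 2.75 and 0.539 CPM, so the 2 arms differed by 7.51 (SE 1.15, adjusted p 7.4e-05), and between MyoD alone and MEFs no difference was called (adjusted p 0.98). Without MEF replicate 1, the MEF library with the most Mstn, MyoD alone was above MEFs by 4.50 on the log2 scale, again not past the threshold (adjusted p 0.07). The myostatin receptor gene Acvr2a rose (34, 29.3 and 33.3 to 75.6, 86.2 and 71 CPM, log2 fold change 1.27, adjusted p 0.00048). Fst, which encodes the inhibitor follistatin, was not called (145, 228 and 275 and 151, 64.4 and 139 CPM, adjusted p 0.47).

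Igf2 (chromosome 7, 142650766 to 142666816), the fetal growth factor that muscle cells secrete as they differentiate, rose from 346, 272 and 56.4 to 8303, 12826 and 10884 CPM (log2 fold change 5.57 with SE 0.68 and adjusted p 1.7e-07). At 6492 ± 1117 TPM it ranked 3 of 15029 protein-coding genes on day 2. Igf1 rose from 3.56, 0.65 and 1.4 to 41.9, 64.4 and 64.9 CPM (log2 fold change 4.92 with SE 0.80 and adjusted p 1.6e-05), and Igfbp5, the binding protein of differentiating muscle, from 272, 43 and 32 to 3236, 3324 and 4606 CPM (log2 fold change 5.01 with SE 0.69 and adjusted p 1.3e-06), with MEF replicate 1 well above the other MEF libraries. Irs1, the adaptor of the insulin and IGF receptors, was higher than in MEFs (log2 fold change 1.66, adjusted p 3.5e-06) and than with MyoD alone (1.70, adjusted p 3.2e-05). Fgf2 fell from 54, 24.5 and 56.9 to 15.9, 4.27 and 4.1 CPM (log2 fold change -2.48 with SE 0.66 and adjusted p 0.004) and Fgfr1 by a smaller amount (-1.10, adjusted p 0.0008). In all, 9 of 25 genes of these families were higher and 4 lower (36 and 16%, against 11.5 and 8.93% of all genes).

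Regulators of cell cycle exit changed in both directions. Cdkn1c, a CDK inhibitor of fetal tissues, rose from 54.1, 18 and 17.6 to 922, 1362 and 1404 CPM (log2 fold change 5.36 with SE 0.95 and adjusted p 4.9e-05). Cdkn1a, the CDK inhibitor that MyoD induces, rose from 346, 503 and 532 to 1288, 1868 and 1226 CPM (log2 fold change 1.67 with SE 0.31 and adjusted p 8.2e-05). Ccnd3, the cyclin of differentiating myoblasts (log2 fold change 2.19), Rb1 (2.26) and the stress genes Gadd45a (3.62) and Gadd45g (2.14) rose, with adjusted p no larger than 7.1e-06. In this list of 17 genes 6 were higher and 4 lower (35.3 and 23.5%, against 11.5 and 8.93% of all genes). The lower genes were Cdkn2a, Cdkn2b, Mdm2 and Rbl2. Each of these 4 falls was lost without at least 1 library, among them day 2 replicate 2 for Cdkn2a (adjusted p 0.088) and Cdkn2b (0.1), MEF replicate 3 for Mdm2 (log2 fold change -0.80) and MEF replicate 1 for Rbl2 (-0.97).

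Of 22 replication and 23 mitosis genes edgeR called 0, with and without MEF replicate 1, and DESeq2 called 0 with all libraries. At an unadjusted p under 0.05 there were 2 of the replication genes in either edgeR fit and 0 of the mitosis genes. Mki67, the proliferation marker, was at 204, 65.1 and 69 CPM in MEFs and 81.3, 58.5 and 79.8 CPM on day 2 (log2 fold change -0.62, adjusted p 0.44), and without MEF replicate 1 the sign was reversed (0.13). The median of the mitosis list was -0.11, or 0.58 without that library, and that of the replication list 0.03, or 0.48. Summed over the 23 mitosis genes, the day 2 libraries were at 959.9, 867 and 1274 CPM, above MEF replicates 2 and 3 and below replicate 1. Against MyoD alone all 22 replication and all 23 mitosis genes had a positive log2 fold change (medians 0.65 and 0.76). Of these, 1 and 0 were called, against 2.13% of all genes higher, or 3 and 0 with the replicate block, against 5.09%. The lists were not tested as sets.

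Fibroblast genes declined in part. Of 22 tested, 8 were lower (36.4%, against 8.93% of all genes) and 0 higher, and 7 were lower without MEF replicate 1. Lox, which crosslinks collagen and elastin, fell from 173, 250 and 466 to 37.7, 16.8 and 21.5 CPM (log2 fold change -3.55 with SE 0.72 and adjusted p 0.00026), Dpt, a matrix protein of connective tissue, from 20.2, 30 and 16.4 to 0.804, 0.563 and 2.35 CPM (log2 fold change -4.16 with SE 1.13 and adjusted p 0.0051), and Fbln2 from 1225, 2131 and 2906 to 449.8, 179.7 and 164 CPM (log2 fold change -2.98 with SE 0.87 and adjusted p 0.0081). Col1a1, the main collagen chain, was at 754, 433 and 1118 CPM on day 2, below every MEF library (log2 fold change -2.38 with SE 0.77 and adjusted p 0.016), but the call was lost without day 2 replicate 2 (adjusted p 0.084). Pdgfra, a receptor of mesenchymal cells, fell from 331, 302 and 220.0 to 45.1, 16.9 and 59.6 CPM (adjusted p 0.042) and lost its call when any 1 of the 6 libraries was left out, with adjusted p from 0.051 without MEF replicate 3 to 0.15 without day 2 replicate 2. Vim (adjusted p 0.1), Thy1 (0.34) and Prrx1 (0.76), a homeobox gene of limb mesenchyme, were not called, and Prrx1 was at 543, 426 and 537 CPM on day 2.

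The wider extracellular matrix list had 3 of 27 genes lower (11.1%) and 0 higher, against 8.93 and 11.5% of all genes. Its share of lower genes was near that of the whole table, but its median log2 fold change was -1.09, against 0.00 over all genes. With the replicate block in 33 libraries 15 were lower and 0 higher, against 2020 and 2253 of all 17325 genes. DESeq2 called 7 lower and 0 higher. The fibroblast list also had more lower genes with the block, 16 against 8. Same-numbered MEF and F/R/C libraries did not all deviate together (r -0.07, 0.13 and -0.07). The 3 matrix genes called lower without the block were Col16a1 (log2 fold change -2.57, adjusted p 0.0011), Eln, the elastin gene (-4.12, 0.0021), and Emilin1, an elastic fibre protein (-1.32, 0.0053). Between the arms, Prrx1 was higher with F/R/C (543, 426 and 537 against 159, 114 and 166 CPM, log2 fold change 1.78 with SE 0.44 and adjusted p 0.0098) and Lox lower (318, 133 and 182 CPM with MyoD alone, log2 fold change -3.06 with SE 0.70 and adjusted p 0.0052). The Prrx1 call was lost without MyoD-alone replicate 2 (adjusted p 0.073).

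Of 21 genes of cholesterol and fatty acid synthesis 6 were lower and 0 higher (28.6 and 0%, against 8.93 and 11.5% of all genes). Among them were the enzyme genes Fdps, Lss and Cyp51 of the sterol pathway, with log2 fold changes of -1.06, -1.26 and -1.09 (adjusted p 0.0015, 0.00043 and 0.00014), Fdft1 of the same pathway (adjusted p 0.012), and Insig1, which encodes a sterol sensor (-1.26, adjusted p 0.00065). Without day 2 replicate 2, Fdft1, Cyp51 and Fdps fell short of the fold minimum (log2 fold changes -0.83, -0.97 and -0.99), as did Cyp51 and Fdft1 without MEF replicate 3 (-0.88 and -0.96). Lss went from 48.1, 56 and 51.8 to 22.4, 18.1 and 24.6 CPM.

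Interferon response genes depended on MEF replicate 1. Of 14 tested 6 were lower and 1 higher (42.9 and 7.14%, against 8.93 and 11.5% of all genes). Without that library 2 were lower and 1 higher, against 7.73 and 10.6% of all genes. MEF replicate 1 had the highest sum of the list, 221 CPM against 138 and 114 CPM. Ifit3, an antiviral effector, fell in either fit, from 20.6, 43 and 12.6 to 0.447, 0.75 and 1.1 CPM (log2 fold change -5.04 with SE 0.58 and adjusted p 5.4e-08), as did Ddx58, a sensor of viral RNA (40.1, 32.9 and 42.9 to 13.7, 6.99 and 11.7 CPM, log2 fold change -1.84, adjusted p 0.0017).

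Across the whole table, protein-coding genes also called without MEF replicate 1 were ranked by their log2 fold change with all MEF libraries. This order depends on that library, without which the median log2 fold change of the sarcomere list was 11.15 instead of 7.76. The genes ranked highest were muscle genes and a few others. Besides Mb, Sln, Myh2 and Mymx they included Trim63, a ubiquitin ligase of the sarcomere (11.8, 19.9 and 11.6 CPM, 1 read in all MEF libraries), Vgll2, a cofactor of TEAD proteins in muscle (0.352, 0 and 0 and 54, 102 and 40 CPM), and 3 genes without reads in MEFs. The latter were B3galt2, a galactosyltransferase (13.1, 12.7 and 5.06 CPM, at least 54.1-fold above the MEF floor), Cplx3, a complexin of synapses (4.38, 10.4 and 5.57 CPM, at least 35.6-fold), and Kcnc4, a potassium channel (6.34, 9 and 3.45 CPM, at least 32.9-fold). Smim5, a small membrane protein, was at 8.76, 21.8 and 12.4 CPM against 1 read in MEFs. Kcnc4 had the largest adjusted p of the genes named here, 0.00019.

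The largest falls included several membrane and secreted proteins. Pdzd2, a PDZ domain protein, fell from 8.18, 44.7 and 29.3 to 0.76, 0.281 and 0.23 CPM (log2 fold change -5.99 with SE 0.77 and adjusted p 4.1e-07), Adam33, a membrane metalloprotease of mesenchyme, from 11, 144 and 56.1 to 0.402, 0.75 and 2.21 CPM (log2 fold change -5.96 with SE 1.14 and adjusted p 0.00015) and Itgbl1, an integrin-like secreted protein, from 34.9, 97.6 and 105 to 1.88, 1.27 and 0.782 CPM (log2 fold change -5.91 with SE 0.96 and adjusted p 2.4e-05). MEF replicate 1 was the lowest MEF library for all 3. Cldn1, a tight junction protein (log2 fold change -5.44), the sterol exporter Abcg1 (-5.41), Pbp2 (-5.82) and Plet1 (-5.42) fell, with adjusted p no larger than 0.00026. Mmp3, a matrix protease, went from 234, 86 and 111 to 5.99, 1.69 and 4.65 CPM (-5.12, adjusted p 0.014) and was not called without day 2 replicate 2 (adjusted p 0.067).

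Pdzd2 and Itgbl1 also separated the arms. With MyoD alone Pdzd2 was at 13.4, 16.2 and 12.9 CPM and Itgbl1 at 27.6, 31.4 and 18.7 CPM, and F/R/C differed from MyoD alone by -5.04 (SE 0.75, adjusted p 5.1e-05) and -4.30 (SE 0.90, adjusted p 0.0028). Adam33 was low in both arms (0.827, 0.574 and 3.1 CPM with MyoD alone, adjusted p 0.85 between them).

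In total 854 of the 17325 genes (4.93%) were called between day 2 with F/R/C and day 2 of MyoD alone, 369 higher (2.13%) and 485 lower (2.80%). With the replicate number as a block in the 33 libraries of MEFs and time course 1770 were called (10.2%), 882 and 888 in the 2 directions. The same 33 libraries without the block gave 1288. The count fell to 423 without day 2 F/R/C replicate 3 and to 488 without MyoD-alone replicate 2. Among the muscle lists, 1 of 42 sarcomere genes was higher and 0 lower (DESeq2 called 2 higher), or 3 and 3 with the block. In the excitation list 2 of 19 were higher and 2 lower (10.5 and 10.5%), or 4 and 4 with the block. Sln (log2 fold change 3.30, adjusted p 0.0066) and Casq1 (2.71, 0.018) were higher with F/R/C, and Mb (-2.73, 0.022) and Clcn1 (-2.30, 0.0066) lower. The call was lost for Casq1 without MyoD-alone replicate 2 or 3 (adjusted p 0.07, 0.076) and for Mb without MyoD-alone replicate 2 (0.068) or F/R/C replicate 1 or 3 (0.08, 0.13). Of 19 genes of fusion and synapse 0 were higher and 2 lower (10.5%), namely Jam2 and Mymx (the latter not without F/R/C replicate 3, adjusted p 0.074), or 1 and 5 with the block, where the fusion gene Mymk was also lower (-1.56, adjusted p 0.046). Of 16 genes of metabolism 0 were called (2 at an unadjusted p under 0.05, 0 by DESeq2), or 2 higher and 1 lower with the block, the latter Ckm (-1.51, adjusted p 0.0045).

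Genes of several kinds separated the arms. Pitx3 was lower with F/R/C (3.98, 4.31 and 5.62 against 14.6, 22.6 and 19.5 CPM, log2 fold change -2.02 with SE 0.46 and adjusted p 0.0045). Jam2, an adhesion molecule of fusing myoblasts, was lower (17.2, 27.6 and 23.1 against 154, 267 and 198 CPM, log2 fold change -3.19 with SE 0.42 and adjusted p 9.6e-06). Besides Mstn, the largest rises included Adamts15, a matrix protease (3.13, 8.82 and 25.3 CPM against 2 reads with MyoD alone, adjusted p 9.3e-05), and Magel2, an imprinted gene, at 17.4, 31.6 and 27.1 against 0.632, 1.26 and 0.135 CPM (log2 fold change 5.27 with SE 1.06 and adjusted p 0.0017). Among the largest falls, Ctrb1, a chymotrypsinogen gene, had 0.0894, 0.0469 and 0.046 against 12.3, 12.8 and 12.3 CPM, and Adamtsl2, a microfibril protein, 0.581, 1.31 and 0.414 against 43.1, 70.2 and 70.4 CPM (log2 fold change -6.31 with SE 0.74 and adjusted p 1.4e-06).

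Most marker lists of other cell types had low sums. Their part in the results was not tested. The macrophage list (7 genes) summed to 5.77 to 11.5 CPM in MEFs and 3.66 to 6.48 CPM on day 2, with Ptprc, C1qa and Tyrobp at 0 reads on day 2. The endothelial list (6 genes) summed to 4.88 to 10.6 and 5.44 to 8.53 CPM, the adipocyte list (5 genes) to 3.11 to 5.98 and 4.22 to 8.53 CPM with Plin1 at 0 in both groups, and the epithelial list (6 genes) to 17.6 to 40.9 and 11 to 29.6 CPM with Krt14 at 0 in both. The cardiac list (8 genes) summed to 2.11 to 2.60 and 3.17 to 4.60 CPM. Nkx2-5 had no reads in either group, and Myh6 had none in MEFs and 1.07, 2.91 and 2.02 CPM on day 2. The neuronal list (7 genes) summed to 26.6 to 60.6 CPM in MEFs and 124 to 152 CPM on day 2, of which Tubb3, a tubulin, accounted for 96.8, 106 and 89.5 CPM and was the 1 called gene (adjusted p 0.00017). In these lists Kdr, Myh6 and Gata4 were called higher and Cdh5 lower, each with a mean of at most 3.18 CPM in either group. The Gata4 call was lost without MEF replicate 1 (adjusted p 0.053), and that of Cdh5 without MEF replicate 2 (0.11) or 3 (0.18) or day 2 replicate 2 (0.18) or 3 (0.12). Smooth muscle markers (6 genes) were abundant in both groups, at 2587 to 4307 and 2608 to 4802 CPM, and 0 of 6 were called by edgeR, at an unadjusted p under 0.05 or by DESeq2.

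Levels on later days are set beside these for a few genes. Pax7 with F/R/C averaged 0.541 ± 0.562 CPM on day 4 (SD, n = 3), then reached 30.3 ± 0.897 CPM by day 8 and 63.6 ± 14.8 CPM by day 10, and Myf6 went from 1.65 ± 0.557 CPM on day 2 to 39.7 ± 5.04 CPM on day 4. Id1 was at its highest mean on day 2, at 142 ± 1.59 CPM, against 94.4 ± 11.5 CPM on day 4 and 56.0 ± 20.0 CPM on day 10. Col1a1 was at 769 ± 343 CPM on day 2, and its means on days 4 to 10 lay between 709 and 1129.8 CPM, with spreads that overlapped. These later values are given as a description, without a test.

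**Figure D5:**
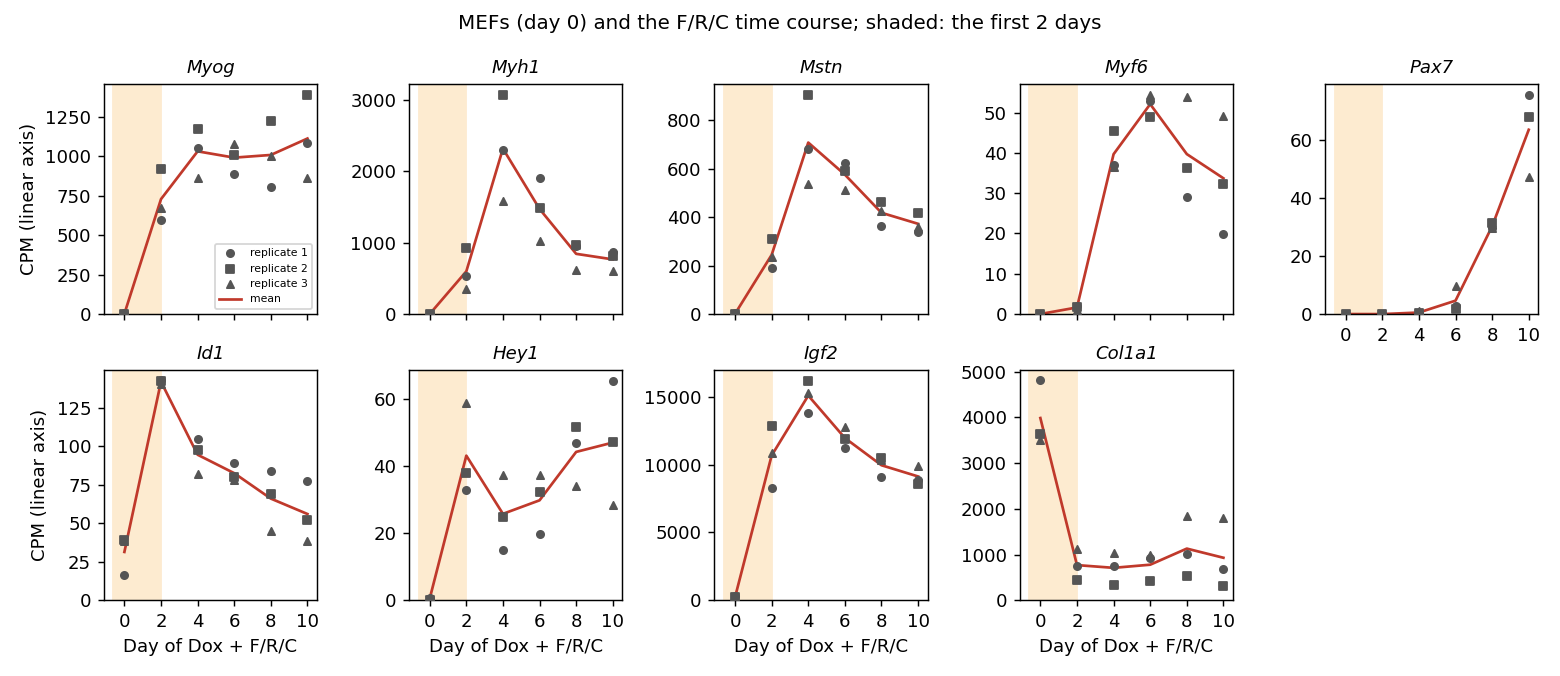
Level of 9 genes (vertical linear axis, CPM) in MEFs (day 0) and on days 2 to 10 of Dox with F/R/C (horizontal axis), with 1 symbol per library and a line through the means; the first 2 days are shaded. Id1 has its highest mean on day 2, Mstn, Myh1 and Igf2 on day 4, and Pax7 leaves the base line after day 4.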

How the data were processed

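The 6 libraries, and the 3 of MyoD alone, were prepared with a stranded mRNA kit and sequenced from 1 end, per the labels' protocols. Per the submitters' processing notes, bcl2fastq 2.19, Trimmomatic 0.36, kallisto 0.44 and edgeR 3.28 were used, with build GRCm38.p6. Per the file headers, each deposited table gives the authors' estimated counts per transcript, which are not normalised and in which a read that matches more than 1 transcript is shared out. TPM values, deposited beside them, correct for length and sum to a constant, and were used only to compare levels between genes.

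Of 121843 transcripts 121104 matched GENCODE M21 (GRCm38), and they held 99.4 to 99.8% of the reads. Estimated counts were summed over 35675 genes and rounded. In 22189 genes every count was whole (tolerance 0.01); elsewhere reads can be divided with another gene. All 45 libraries were fitted with edgeR 4.0.16 (R 4.3.3; TMM, filterByExpr by group, minimum count 10, quasi-likelihood test, 15 groups, 30 residual degrees of freedom). Each standard error is the size of the log2 fold change divided by the square root of F. The floor was 3 reads in a single library. It was taken from the MEF library with the highest floor (0.190 CPM) among those compared, and covers counting error only. Fold bounds are given where all libraries of the lower group had no reads.

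Genes named are the 10 highest and 10 lowest called protein-coding genes against MEFs (mean of at least 5 CPM in the higher group, no overlap, also called without MEF replicate 1), the 8 highest and 8 lowest against MyoD alone, up to 4 called genes of each list and a fixed set; some are left out, and a few list members were added after their values were seen. Members and lists were chosen with earlier results of these data known. Between the arms same-numbered libraries deviated together (r 0.371, 0.346 and 0.375 for numbers 1, 2 and 3), so the replicate block is given there. Against MEFs it is given only for the matrix and fibroblast lists and the total counts. On data simulated for F/R/C against MEFs (17325 genes, 200 changed 4-fold), 125 were called, all changed ones (62.5%), and the direction was right for 199. Alternatives were DESeq2 1.42.0, other scaling, filters, sample sets, blocks and leaving out each replicate. Promoters are RefSeq entries, 1 per gene, the one nearest to the GENCODE start.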

Additional observations from a re-analysis of the deposited data

Results flagged for a closer look

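In 11 of the 17325 genes tested the change from MEFs had opposite signs in the 2 arms on day 2. Each change was called, and the arms differed in edgeR's test. Of these, 8 were protein-coding with a mean of at least 5 CPM in the higher arm, and they are given here. The arms share the MEF libraries, so the test of the difference is the one between them. In 7 of the 8 genes MyoD alone was higher than MEFs and F/R/C was lower. Dennd3 differed between the arms by -4.19 (F/R/C against MEFs -2.14, MyoD alone against MEFs 2.05, log2 scale), Pmepa1 by -3.99 (-1.80 and 2.19), Dock8 by -3.95 (-2.53 and 1.42), Spsb1 by -3.52 (-1.53 and 2.00), Ccn4 by -3.33 (-2.31 and 1.02), Trim47 by -2.77 (-1.25 and 1.52) and Tns1 by -2.26 (-1.04 and 1.22). In Bace2, a protease gene, the signs were the other way, with a difference of 3.42 (1.58 and -1.84).

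By library, Ccn4, a matricellular target of Wnt signalling, was at 215, 123 and 146 CPM in MEFs, 33.4, 32 and 31.9 CPM with F/R/C and 343, 346 and 292 CPM with MyoD alone. Spsb1, a subunit of a ubiquitin ligase, was at 13.4, 27 and 31.3 CPM in MEFs, 11.2, 7.83 and 5.8 CPM with F/R/C and 88.5, 102 and 95.6 CPM with MyoD alone. Tns1, a focal adhesion protein, was at 196, 182 and 224 CPM in MEFs, 110.3, 88.5 and 94.1 CPM with F/R/C and 419.8, 489 and 491 CPM with MyoD alone. In each of these 3 genes no library of the F/R/C group reached the lowest of MyoD alone. The genes were picked by their calls between these libraries, and the arms did not overlap for 37.8% of all genes tested. Against MEFs, the F/R/C call was lost for Bace2 without MEF replicate 1, 2 or 3 (adjusted p 0.059, 0.061 and 0.081) or F/R/C replicate 3 (0.17). For Trim47 it was lost without MEF replicate 1 (0.078). Dennd3 lost it without MEF replicate 1 or 2 (0.071, 0.054) or F/R/C replicate 1, 2 or 3 (0.079, 0.091, 0.073), and Tns1 without MEF replicate 1 or 3 (0.062, 0.079) or any F/R/C replicate (0.052, 0.1, 0.09). Between MyoD alone and MEFs the call held for Pmepa1, Spsb1, Trim47 and Bace2 without any 1 of the 6 libraries. It was lost for Dennd3 without MEF replicate 1, 2 or 3 (adjusted p 0.06, 0.067 and 0.077) or MyoD-alone replicate 2 (0.14), and for Dock8 without MEF replicate 1 or 2 (0.083, 0.1) or MyoD-alone replicate 1 (0.16). Ccn4 lost it without MEF replicate 2 or 3 (0.11, 0.079) or MyoD-alone replicate 1 or 2 (0.062, 0.069), and Tns1 without MEF replicate 2 (0.052).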

How the results depend on the processing

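Against MEFs 3531 genes were called. Other scaling, no filter on low counts, DESeq2 and other sample sets gave counts from 2740 to 4273. Without each replicate in turn it was 2592 (without F/R/C replicate 2) to 3462. With no minimum fold change it was 5899, and with genes of whole counts, 8095 of the 17325, it was 1759. The replicate block gave 4273 in 33 libraries (3860 without it) and 2740 in the 2 groups (3068); same-numbered libraries did not all deviate together here (r -0.07, 0.13 and -0.07). Against MyoD alone 854 were called. That count was 491 for whole counts, 1401 with no minimum fold change, 1420 with the 2 groups only, 1823 with those and the replicate block, 1288 in the 33 libraries and 1770 with the replicate block. Without each replicate it was 423 (without F/R/C replicate 3) to 695, with 488 without MyoD-alone replicate 2. The cause of these shifts was not tested, beyond the smaller number of genes or libraries and the dropped fold minimum.

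Of the named genes against MEFs, 1380 alternative values kept direction and side of the threshold, 34 lost the call, 5 gained it, and the sign turned for Lef1 and Mki67 without MEF replicate 1. Without each replicate in turn Lef1 ranged from -0.95 (without MEF replicate 2) to 0.17 and Mki67 from -0.91 (without MEF replicate 2) to 0.13. Between the arms 980 kept both, 64 lost the call, 13 gained it and 0 turned. The replicate block changed the call of genes such as Axin2 and Myod1 between the arms, as given with them. Depth limits statements on genes near 0.190 CPM, the MEF floor.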

Other observations

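The abundant transcripts of the culture changed in ways that the lists of the report do not cover. Tmsb10, which encodes an actin-binding peptide, was second only to Eef1a1 by mean TPM among protein-coding genes on day 2, at 7385 ± 1464 TPM (SD, n = 3) against 2963 ± 590.0 TPM in MEFs (log2 fold change 1.40, called by edgeR). S100a6, a calcium-binding protein, went the other way, from 10759 ± 2146 TPM to 2466 ± 459 TPM (log2 fold change -1.94, called by edgeR). Both were picked after their values were seen.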
